A study of Mus musculus with 2 samples.

Results

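The chemokines described here are 6 CC chemokines, Ccl2, Ccl3, Ccl4, Ccl5, Ccl7 and Ccl20, together with the CX3C chemokine Cx3cl1 and its receptor Cx3cr1. They were chosen by name, as 8 of the 32285 genes in the feature tables, and their unique molecular identifiers (UMIs, 1 per captured transcript) were counted in every cell type of the mouse mammary gland. Chemokines are small secreted proteins that draw leukocytes along a gradient. In the CC family the first pair of cysteines of the mature protein stand side by side, and in the CX3C family they are set apart. Ccl2 and Ccl7 act through Ccr2 and call monocytes out of the blood, Ccl3, Ccl4 and Ccl5 act on monocytes, T cells and NK cells, and Ccl20 acts through Ccr6. Cx3cl1 is made as a membrane-bound stalk that the proteases Adam10 and Adam17 can shed, and Cx3cr1 is known from resident macrophages, monocytes and cytotoxic lymphocytes.

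Single cells were taken from the mammary glands of adult female wild-type mice and sorted as CD45+ cells and as CD31-TER119- cells before droplet sequencing of mRNA 3′ ends. The control group (Ctrl) and the group given clodronate liposomes (CL), an agent that phagocytes take up and that kills them, each gave 1 library. The protocol in the labels puts the mice at 8 to 10 weeks of age, while their genotype field gives 9 to 10 weeks. The labels name no transgene, deletion or strain, and do not say what the control mice were given in place of the liposomes. How many mice went into a library is not given in the labels, so no difference between Ctrl and CL has a replicate check, and no test of the treatment was possible. Every interval below is a 95% interval for counting error only, and because several of these genes had most of their UMIs in a few cells it is narrower than the spread between cells.

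After filters on genes per cell, mitochondrial reads and doublets, 5847 cells were retained in Ctrl (83792969 UMIs, median 11257 per cell) and 8359 in CL (105501670 UMIs, median 9893). The cells formed 37 clusters, made without the chemokine and receptor genes, and a cluster was named from standard markers of its cell type. The CL library is labelled macrophage-depleted. The share of macrophage-like cells was lower in it, with counting intervals that overlap at this depth: 40 of 5847 cells in Ctrl (0.684%, interval 0.489 to 0.93%) and 39 of 8359 in CL (0.467%, 0.332 to 0.637%) fell in that cluster. With an unnamed myeloid cluster and the monocyte-like or dendritic-like cells added, the share was higher in CL, 0.941% in Ctrl (0.709 to 1.22%) and 2.58% in CL (2.25 to 2.95%). The 9 macrophage markers summed to 82.9 and 100.3 counts per 1000000 UMIs (CPM) over all retained cells. All 9 were detected in both libraries. T-like, NK-like and unnamed lymphoid cells were 3.64% of the cells in Ctrl and 8.69% in CL. Since these values do not settle how far the libraries differ in macrophages, directions below are given for the library labelled CL over the library labelled Ctrl. The sort leaves out CD31+ cells that lack CD45, so the 52 endothelial-like cells in Ctrl and 51 in CL are what passed that gate, and 9 barcodes were retained in both libraries.

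The sequences that set the families apart, and that separate near neighbours on chromosome 11, are the coding stretches around the first cysteines of the mature protein. Each is 30 bases of exon 2, read 5′ to 3′ on the coding strand of mouse build GRCm38 from the reference transcript of the gene, with the cysteine codons in capitals.
Ccl2: ctcaccTGCTGCtactcattcaccagcaag
Ccl7: tccacaTGCTGCtatgtcaagaaacaaaag
Ccl4: acttccTGCTGTttctcttacacctcccgg
Ccl5: actcccTGCTGCtttgcctacctctccctc
Ccl20: tacgacTGTTGCctctcgtacatacagacg
Cx3cl1: acgaaaTGCgaaatcatgTGCgacaagatg
In the 5 CC genes shown the cysteine codons were adjacent, and in Cx3cl1 3 codons lay between them.

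These stretches lie at chr11:82036500-82036529 on the plus strand for Ccl2, chr11:82046532-82046561 on the plus strand for Ccl7, chr11:83663476-83663505 on the plus strand for Ccl4, chr11:83529224-83529253 on the minus strand for Ccl5, chr1:83117807-83117836 on the plus strand for Ccl20 and chr8:94778045-94778074 on the plus strand for Cx3cl1. Cx3cr1, the receptor, is the gene at chr9:119901616-120069879 on the minus strand. Ccl2 and Ccl7 are separated by 8258 bases, Ccl3 and Ccl4 by 13228 bases, and Ccl5 and Ccl3 by 117325 bases. Ccl3 and Ccl4, with 69.6% identical bases, and Ccl2 and Ccl7, with 68.0%, were the pairs most alike in coding sequence, against 56.8 to 65.6% for the other pairs of CC genes. 

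The genes divided the tissue among them. Ccl2 and Ccl7 were highest in fibroblast-like cells, Ccl3 and Ccl4 in macrophage-like and neutrophil-like cells with Ccl4 also in NK-like and T-like cells, Ccl5 in T-like and NK-like cells, Ccl20 in hormone-responsive luminal-like cells, and Cx3cl1 in secretory-lineage luminal-like and basal-like cells. Cx3cr1 was sparse, with 31 UMIs in Ctrl and 83 in CL. The scale used throughout is CPM of the class, that is, the UMIs of the gene per 1000000 UMIs of all cells of that class in 1 library, and since 3′ ends are counted it is not divided by gene length. Levels of different genes are not ranked against each other.

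**Figure D1:**
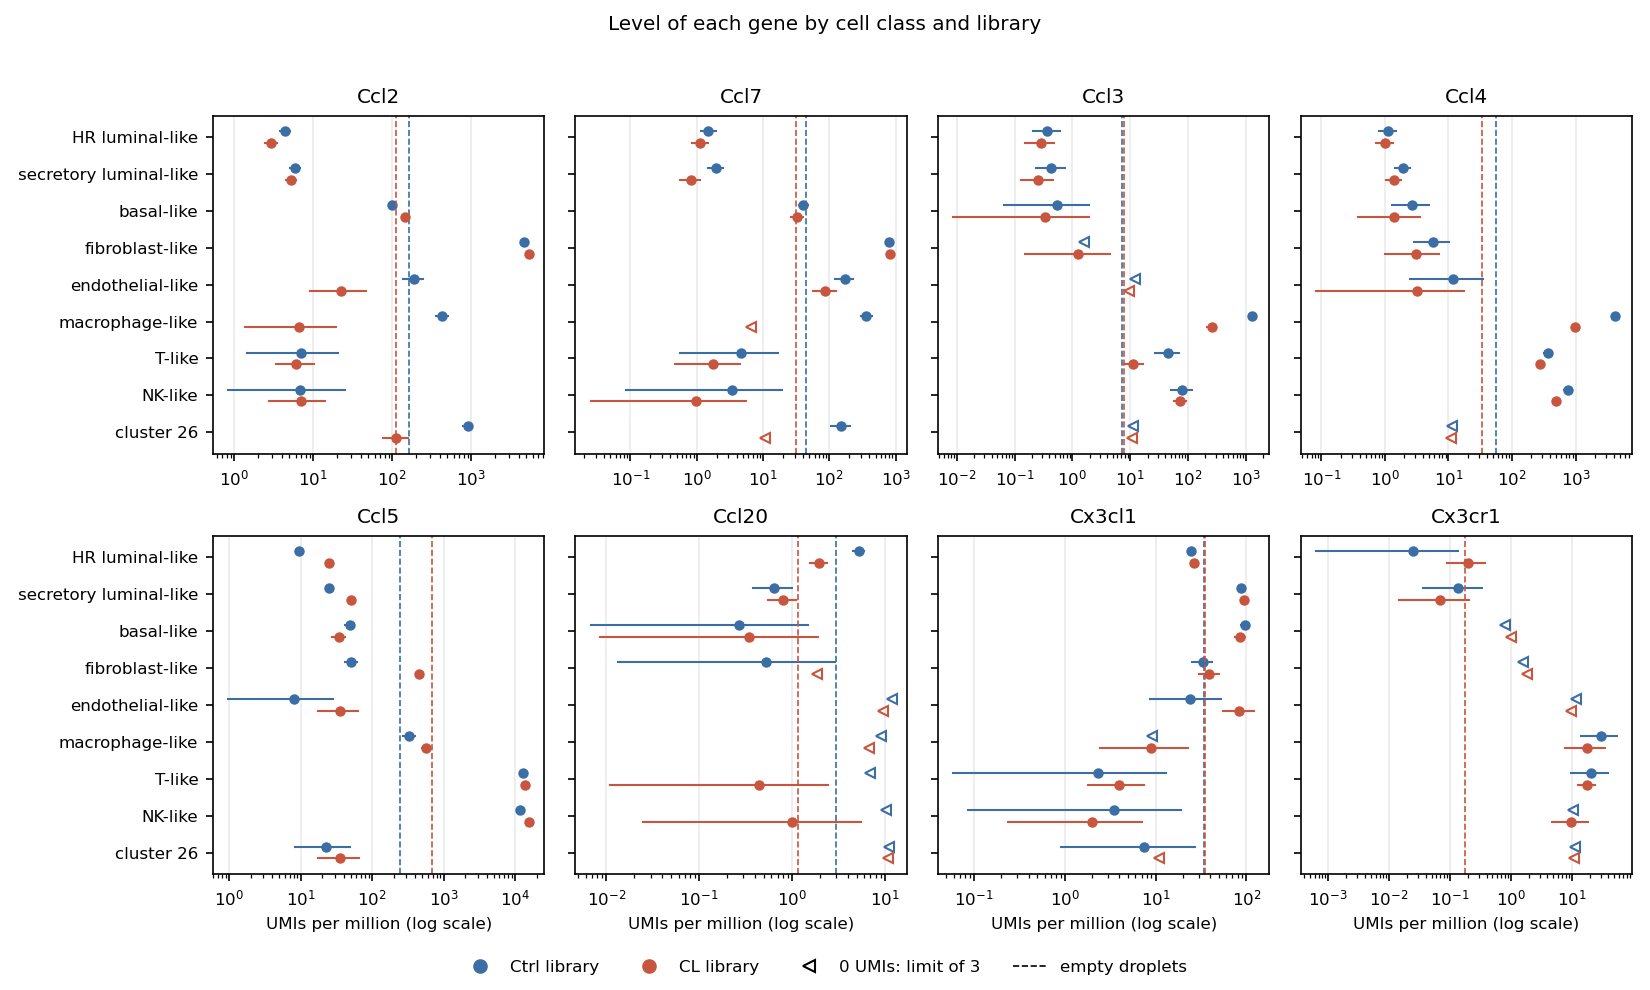
Level of each of the 8 genes by cell class and library, in CPM of the class on a log axis, with error bars for the 95% Poisson counting interval; blue is Ctrl, red is CL, the dashed line of the same colour is the level in droplets without a cell, and an open triangle marks the limit for a class with 0 UMIs. Ccl2 and Ccl7 peak in fibroblast-like cells at 4722 and 788 CPM in Ctrl, Ccl5 in T-like cells at 12739.8 CPM, and Cx3cl1 in secretory-lineage luminal-like and basal-like cells at 87.1 and 95.7 CPM.

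RNA that floats free gives every droplet a few UMIs, so each level is read beside the level in droplets of 100 to 300 UMIs, which hold no cell. There were 54275 such droplets in Ctrl and 55973 in CL. Ccl5 stood at 243 CPM in them in Ctrl against 683 CPM in CL, Ccl2 at 161 and 110 CPM, Ccl4 at 55.1 and 34.0 CPM, Ccl7 at 44.5 and 31.1 CPM and Cx3cl1 at 34.3 and 35.0 CPM. Ccl3 stood at 7.35 and 7.75 CPM and Ccl20 at 2.99 and 1.17 CPM, while Cx3cr1 had 0 UMIs in Ctrl and 2 in CL. Only a part of a cell's UMIs comes from free RNA. From marker genes of other cell types that share was estimated at 6.91% in Ctrl and 5.57% in CL for hormone-responsive luminal-like cells, 9.42 and 10.3% for basal-like cells and 15.4 and 16.6% for fibroblast-like cells.

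Ccl2, which recruits monocytes through Ccr2, was above all a fibroblast gene. Fibroblast-like cells were 248 of the Ctrl and 255 of the CL cells and held 88.1% and 88.7% of all Ccl2 UMIs. Their level was 4722 CPM in Ctrl (9033 UMIs, interval 4625 to 4820) and 5332 CPM in CL (8632 UMIs, 5220 to 5445), a log2 ratio of CL over Ctrl of 0.18 (0.13 to 0.22). A UMI of Ccl2 was found in 156 fibroblast-like cells in Ctrl and 180 in CL. When every cell was thinned to 2000 UMIs, the share with a Ccl2 UMI was 52.5% in Ctrl (interval 45.7 to 59.3%) and 65.9% in CL (59.1 to 72.2%), against 1.01% and 0.607% of hormone-responsive luminal-like cells, which should lack it. The unthinned shares were 62.9% and 70.6% in fibroblast-like cells (median 7114.5 and 5187 UMIs per cell). In hormone-responsive luminal-like cells they were 8.11% and 5.1% (median 19910 and 16716.5 UMIs).

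The fibroblast-like clusters did not move together. In cluster 16, the largest, Ccl2 stood at 2524 CPM in Ctrl against 4391 CPM in CL, a log2 ratio of 0.80. In cluster 20, which also had high Il6, an inflammatory cytokine, it stood at 5230 and 4659 CPM (log2 -0.17). Cluster 32 had the highest level, 48592 and 36029 CPM (log2 -0.43) in 19 and 18 cells, led by Ccl2 and Apod, a lipid-binding lipocalin, and these few shallow cells (median 2791 UMIs) held 30.4% of all Ccl2 UMIs in Ctrl and 17.2% in CL. Cluster 23, with 51 cells in Ctrl and 14 in CL, had 3695 CPM over both libraries together, and its direction is not described. Without cluster 32 the fibroblast-like level was 3198 CPM in Ctrl against 4424 CPM in CL, a log2 ratio of 0.47. As a mean over cells in place of summed UMIs, the ratio with all fibroblast-like cells was -0.19, so the direction over the whole class depended on how cells were weighted.

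Ccl7, the neighbour of Ccl2 that also acts on Ccr2, was likewise highest in fibroblast-like cells. Fibroblast-like cells held 75.5% of its UMIs in Ctrl and 80.5% in CL, at 788 CPM (1507 UMIs, 748 to 829) and 835 CPM (1352 UMIs, 791 to 881). The log2 ratio of 0.08 (-0.02 to 0.19) was not distinguishable from 0 at this depth. By cluster, Ccl7 was 317 and 692 CPM in cluster 16 (log2 1.12), 1959 and 1303 CPM in cluster 20 (-0.59) and 6775 and 3140 CPM in cluster 32 (-1.11), which is the order of ratios seen for Ccl2. Without cluster 32 the level was 580 CPM in Ctrl against 767 CPM in CL (log2 0.40). The pair was also seen in the same cells: in Ctrl 46.2% of fibroblast-like cells with a Ccl2 UMI had a Ccl7 UMI, against 10.9% of those without, and in CL 52.2% against 12.0%. The cells with Ccl2 were also deeper, with medians of 7812 against 6782 UMIs in Ctrl and 5584 against 4656 in CL.

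**Figure D2:**
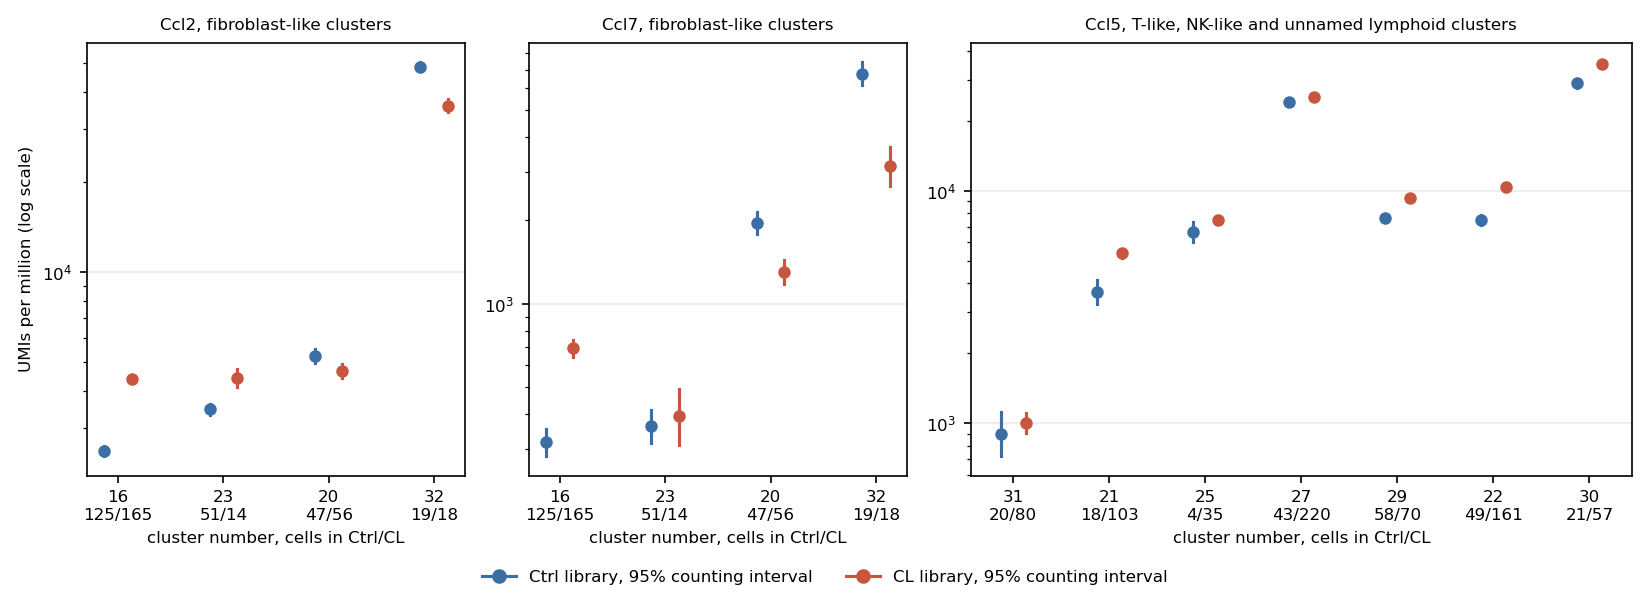
Level of Ccl2 and Ccl7 in the fibroblast-like clusters and of Ccl5 in the T-like, NK-like and unnamed lymphoid clusters, in CPM of the cluster on a log axis, Ctrl in blue and CL in red with 95% counting intervals, and the number of cells in Ctrl and CL under each cluster number. Ccl2 and Ccl7 were higher in CL in cluster 16 and higher in Ctrl in clusters 20 and 32, while the Ccl5 levels of the 7 lymphoid clusters ran from 903 to 28967 CPM in Ctrl.

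Basal-like cells, the contractile outer layer of the ducts, had far less Ccl2 than fibroblast-like cells. It was 100.5 CPM in Ctrl (376 UMIs in 93 of 405 cells, 90.6 to 111) and 146 CPM in CL (427 UMIs in 75 of 439 cells, 132 to 161), a log2 ratio of 0.54 (0.34 to 0.74). Few cells carried much of it: the richest cell held 16.2% of the UMIs in Ctrl and 25.3% in CL, and without it the levels were 84.4 and 109 CPM (log2 0.37). At a common 2048 UMIs, 9.87% of basal-like cells in Ctrl (7.12 to 13.2%) and 10.4% in CL (7.55 to 13.8%) had a Ccl2 UMI. At 2000 UMIs the shares were 12.6% in Ctrl and 9.62% in CL. The intervals overlapped at both depths and the direction turned between them, so these shares do not settle a direction. The unthinned shares were 23.0% in Ctrl and 17.1% in CL. The Ctrl level was below that of empty droplets and the CL level above it, and after taking off the estimated free RNA 94.1 and 150 CPM remained. Ccl7 in basal-like cells was 40.6 CPM in Ctrl against 32.5 CPM in CL (152 and 95 UMIs, log2 -0.32), with an interval that includes 0 (-0.71 to 0.06). Of the 4 genes with a ratio in basal-like cells, 0 were 2-fold higher and 0 were 2-fold lower, where 1.33% of all genes measured in them were higher by that much and 2.75% lower, with a median log2 ratio of -0.095. Luminal cells had 4.93 and 4.03 CPM of Ccl2 in all, which in both luminal classes went to 0 once free RNA was taken off.

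In macrophage-like cells Ccl2, Ccl7, Ccl3 and Ccl4 all had lower levels in the CL library. Ccl2 was 430 CPM in Ctrl (143 UMIs, 362 to 506) and 6.69 CPM in CL (3 UMIs, 1.38 to 19.5), a log2 ratio of -6.01 with an interval of -8.30 to -4.43. With finer clusters (Leiden resolution 2) it was -1.54, and with each cell named alone -0.95, so its size depends on which cells are counted as macrophage-like. Ccl7 was 364 CPM in Ctrl (121 UMIs in 12 of 40 cells) and had 0 UMIs in CL, at least 54.4-fold lower against a floor of 3 UMIs over the class. In Ctrl 1 cell held 49.7% of the Ccl2 UMIs and 5 cells 97.2%, so the Ctrl level rests on few cells. Of the 8 Ctrl cells with Ccl2, 87.5% also had Ccl7, against 15.6% of the other 32.

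Ccl3 and Ccl4, the macrophage inflammatory proteins, were found in more of these cells. Ccl3 was 1278 CPM in Ctrl (425 UMIs, 1159 to 1405) and 256 CPM in CL (115 UMIs, 212 to 308), a log2 ratio of -2.32 (-2.63 to -2.02), and Ccl4 was 4251 CPM in Ctrl (1414 UMIs, 4032 to 4478) and 994 CPM in CL (446 UMIs, 904 to 1091), a log2 ratio of -2.10 (-2.25 to -1.94). At a common 3890 UMIs per cell, Ccl3 was found in 54.1% of Ctrl cells (36.9 to 70.5%) and 25.7% of CL cells (12.5 to 43.3%), and Ccl4 in 51.4% (34.4 to 68.1%) and 25.7% (12.5 to 43.3%). These intervals overlap. At 2000 UMIs only 0.253% and 0.202% of hormone-responsive luminal-like cells had a Ccl4 UMI. The richest cell held 36.9% and 56.5% of the Ccl3 UMIs, and 47.5% and 63.0% of the Ccl4 UMIs, in Ctrl and CL. Without it the log2 ratios were -2.85 for Ccl3 and -2.60 for Ccl4. The richest cells of both genes had the same total, 8572 UMIs in Ctrl and 13223 in CL, and may be the same cell in each library. The Ctrl cell richest in Ccl4 held 671 UMIs of it. Ctrl cells without a T or NK marker UMI held 554 in all, so that cell carried such a marker.

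Of the 5 genes with at least 20 UMIs behind the higher level in macrophage-like cells, 4 (Ccl2, Ccl3, Ccl4 and Ccl7) were 2-fold or more lower in CL and 0 were higher by that much, while 4.66% of all 2833 genes measured in these cells were lower and 6.32% higher, with a median log2 ratio of 0.12. Marker genes within the class were not all at the same level in the libraries. Mrc1, the mannose receptor of tissue-resident macrophages, was 168 CPM in Ctrl against 20.1 CPM in CL (log2 -3.07), and Pf4, a platelet-type chemokine also made by resident macrophages, was 703 and 189 CPM (-1.89). C1qa, a complement subunit, was 3920 and 4906 CPM (0.32) and H2-Aa, an antigen-presenting molecule, differed by a log2 ratio of 0.01. Ccr7, carried by migrating dendritic cells, was 18.0 and 131 CPM (2.87). Genes of the dissociation stress response summed to 6337 CPM in Ctrl against 3256 CPM in CL, with all 10 detected in both. The part of this makeup, or of the stress genes, in the lower chemokine levels was not tested. Removing macrophage-like cells with any UMI of a T or NK marker left 29 of 40 cells in Ctrl and 30 of 39 in CL. It gave a log2 ratio of -0.77 for Ccl4 (2114 and 1237 CPM) and -1.66 for Ccl3. The size for Ccl4 thus depends on whether those cells are counted.

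**Figure D3:**
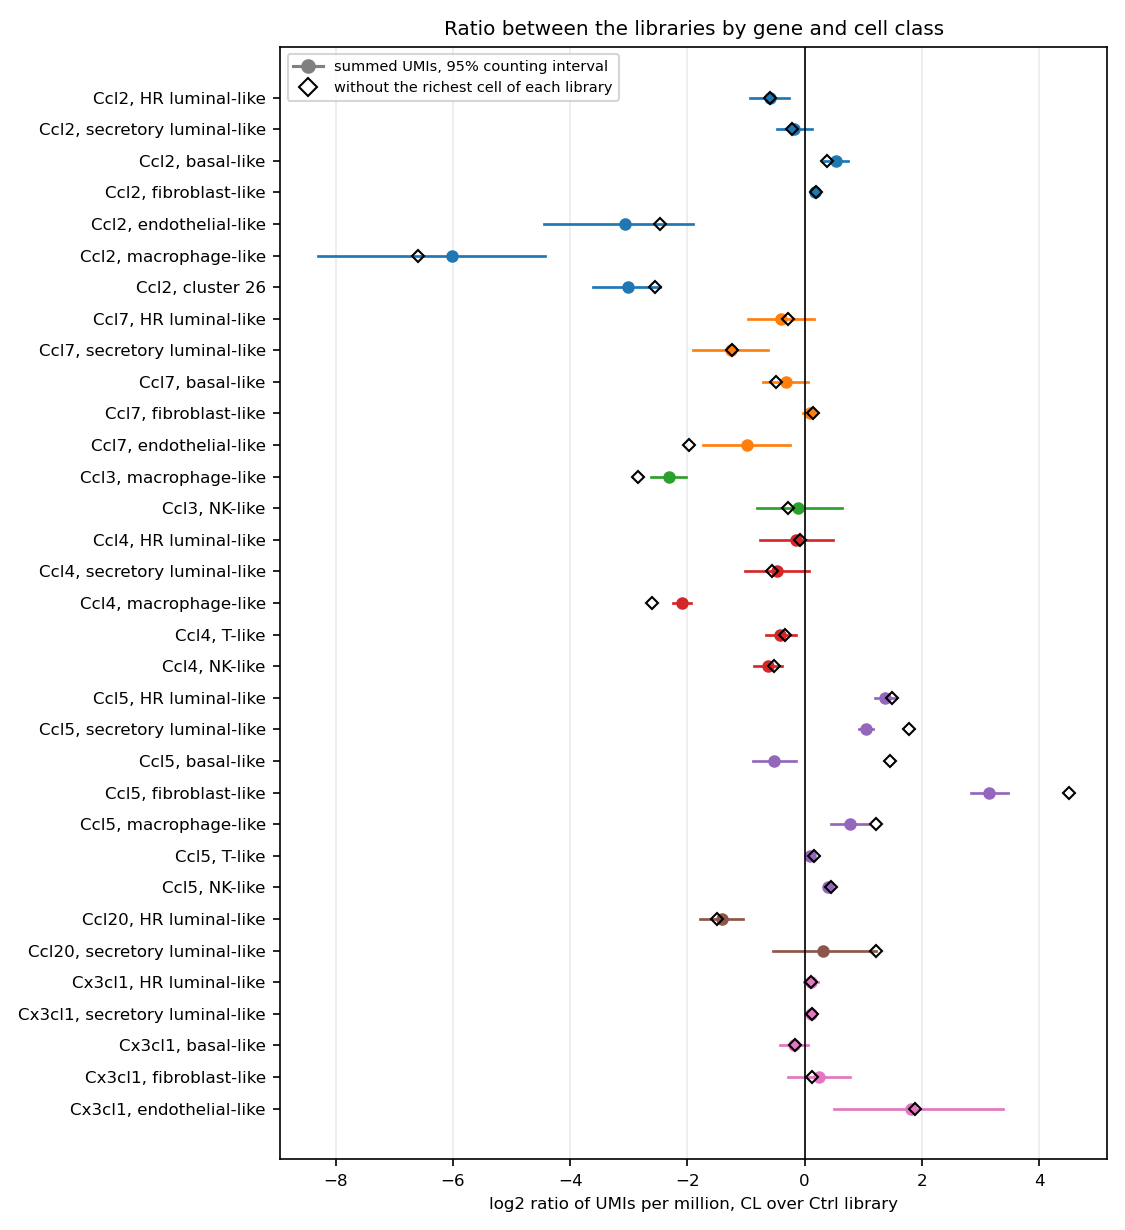
Log2 ratio of CL over Ctrl for each gene and cell class with at least 20 UMIs in the library with the higher level; dots are summed UMIs with the exact 95% counting interval, coloured by gene, and open diamonds the ratio without the richest cell of each library. Ccl2, Ccl3 and Ccl4 in macrophage-like cells lie at -6.01, -2.32 and -2.10, fibroblast-like Ccl2 and Ccl7 at 0.18 and 0.08, and the diamond of basal-like Ccl5 lies on the other side of 0 from its dot.

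The other myeloid classes were small. Neutrophil-like cells (2 in Ctrl and 18 in CL) had Ccl3 at 3093 CPM in CL (204 UMIs, 2683 to 3548) and 1493 CPM in Ctrl from 8 UMIs, and Ccl4 at 3184 CPM in CL (210 UMIs) with 0 UMIs in Ctrl. In the CL library they held 37.6% of all Ccl3 UMIs, more than the 21.2% held by the macrophage-like cells, while in Ctrl the macrophage-like cells held 82.7%. With 2 Ctrl cells the ratio has little meaning, and under several settings its sign turned. An unnamed myeloid cluster led by Lyz2, the lysozyme of myeloid cells, and Fcer1g, an Fc receptor subunit, had 12 cells in Ctrl and 151 in CL. Its best marker score was that of macrophages, but no macrophage marker was among its 10 leading genes. It had Ccl2 at 202 CPM in CL (227 UMIs) and 88.3 CPM in Ctrl (5 UMIs), and Ccl7 at 93.3 CPM in CL (105 UMIs) and 70.6 CPM in Ctrl (4 UMIs). Over the macrophage-like, unnamed myeloid and monocyte-like or dendritic-like cells together, with the neutrophil-like cells left out, Ccl2 was 367 CPM in Ctrl against 121 CPM in CL (log2 -1.60), and Ccl4 was 3474 and 284 CPM (-3.61), where the unnamed myeloid cells were 12 in Ctrl and 151 in CL.

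Vessel-associated classes also had Ccl2 and Ccl7, and there too the level was lower in CL, from few UMIs. Endothelial-like cells had Ccl2 at 187 CPM in Ctrl (47 UMIs, 1 cell holding 53.2%) and 22.4 CPM in CL (7 UMIs). That is a log2 ratio of -3.06 (-4.45 to -1.90). Their Ccl7 was at 171 and 86.6 CPM (43 and 27 UMIs, -0.98). As a mean over cells the Ccl7 ratio was 0.051, and in endothelial-like cluster 24 Ccl7 was 383 and 636 CPM, so its direction was not stable. Cluster 26, which had pericyte markers but failed the check of its name, had Ccl2 at 902 CPM in Ctrl (242 UMIs) and 112 CPM in CL (31 UMIs), a log2 ratio of -3.02, and Ccl7 at 149 CPM in Ctrl against 0 UMIs in CL, at least 13.8-fold lower. In Ctrl 47.1% of its Ccl2 UMIs came from 1 cell, and with a stricter mitochondrial limit of 5% the ratio was 0.05. Of the 3 genes with a ratio in endothelial-like cells 1 was 2-fold higher and 1 was 2-fold lower, against 5.86% and 4.46% of all genes there.

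**Figure D4:**
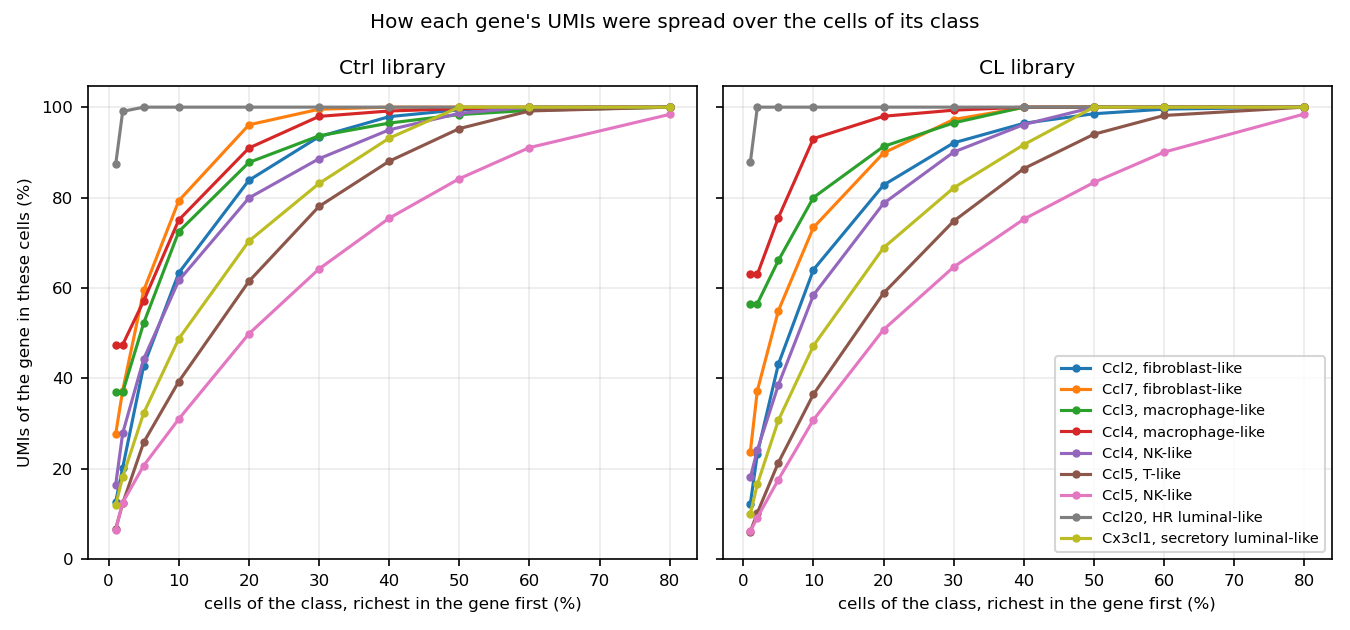
Cumulative share of the UMIs of a gene (percent) against the percent of cells of its class, richest cells first, in Ctrl (left) and CL (right). Ccl20 climbs most steeply, Ccl5 in NK-like and T-like cells least, and in macrophage-like cells the first point, 1 cell, holds 36.9% of the Ctrl and 56.5% of the CL Ccl3 UMIs.

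Lymphocytes also had Ccl4, at a lower level in the CL library in both named classes. Ccl4 in NK-like cells was 755 CPM in Ctrl (219 UMIs, 658 to 862) and 488 CPM in CL (493 UMIs, 446 to 533), a log2 ratio of -0.63 (-0.86 to -0.39), and in T-like cells 369 CPM (158 UMIs) and 277 CPM (633 UMIs), a log2 ratio of -0.41 (-0.67 to -0.15). In T-like clusters 25 and 27, which had Cd8a, the coreceptor of cytotoxic T cells, Ccl4 was 605 and 363 CPM (-0.74). In NK-like cluster 22 it was 843 and 492 CPM (-0.78), but in NK-like cluster 30 it was 409 and 471 CPM (0.20) and in T-like cluster 21 51.8 and 256 CPM, where Ctrl had 4 UMIs. Of the T-like cells with Ccl4, 24 of 24 in Ctrl and 122 of 124 in CL also had Ccl5, against 59.0% and 72.0% of those without Ccl4. Ccl3 was 79.3 CPM in Ctrl against 73.2 CPM in CL in NK-like cells (23 and 74 UMIs, log2 -0.11, -0.81 to 0.63), and 44.4 and 11.4 CPM in T-like cells from 19 and 26 UMIs, where 1 Ctrl cell held 18 of the 19. In NK-like cells 0 of 3 genes with a ratio, and in T-like cells 0 of 2, differed 2-fold in either direction, against 7% higher and 0.744% lower over all genes in NK-like cells and 9.24% higher and 0.58% lower in T-like cells.

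Ccl5, the chemokine of effector and memory lymphocytes, had the largest ratio over all cells of the 8 genes. T-like, NK-like and unnamed lymphoid cells held 88.0% of its UMIs in Ctrl and 91.0% in CL. Within them the level differed little: T-like cells stood at 12739.8 CPM in Ctrl against 13636 CPM in CL (5454 and 31158 UMIs, log2 0.10, 0.06 to 0.14), NK-like cells at 11822 and 15575 CPM (3430 and 15740 UMIs, 0.40, 0.34 to 0.45) and unnamed lymphoid cells at 7623 and 9298 CPM (0.29). The median log2 ratio of all genes measured was 0.17 in T-like and 0.13 in NK-like cells. By cluster, Ccl5 was 24073 and 25433 CPM in T-like cluster 27, 28967 and 34961 CPM in NK-like cluster 30, 7475 and 10424 CPM in NK-like cluster 22 and 903 and 1005 CPM in T-like cluster 31, which was led by Emb and Il5, the cytokine that drives eosinophils. The Cd8a clusters 25 and 27 together had 19968 CPM in Ctrl against 19895 CPM in CL, a log2 ratio of -0.01. The largest log2 ratio of any of the 7 lymphoid clusters was 0.54, in cluster 21, so Ccl5 varied far more between clusters than between libraries.

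Over all retained cells Ccl5 was 157 CPM in Ctrl (154 to 160) and 528 CPM in CL (523 to 532), a log2 ratio of 1.75. With the Ctrl level of each class held fixed and only the class shares of UMIs set to those of CL, the tissue level came to 437 CPM, a log2 ratio of 1.48. Of the 8 genes over all retained cells, 2 (Ccl5 and Cx3cr1) were 2-fold or more higher in CL and 1 (Ccl20) lower. Over all genes 3.76% were higher and 3.04% lower. Over the alternatives the log2 ratio fell as low as 1.61 for Ccl5 and 0.84 for Cx3cr1, and Ccl20 came to -0.83. So the 2-fold calls of Cx3cr1 and Ccl20 did not hold under all of them. Fibroblast-like cells were 4.24% of the cells in Ctrl and 3.05% in CL. For Ccl2 and Ccl7 the calculation with CL class shares gave log2 ratios of -0.50 and -0.40, against -0.41 and -0.58 measured. For Ccl3 and Ccl4 it gave 0.56 and 0.61 against -0.25 and -0.26 measured. For Cx3cr1 it gave 2.16 against 1.09 measured, from few UMIs, and for Ccl20 -0.14 against -1.23.

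Outside lymphocytes Ccl5 was set beside the droplet level. In cells without any UMI of a T or NK marker, its level was 3.41% of the droplet level in Ctrl and 3.74% in CL in hormone-responsive luminal-like cells, 3.83% and 4.32% in secretory-lineage cells other than cluster 6, 4.71% and 5.34% in basal-like cells, 5.66% and 6.15% in fibroblast-like cells, and 3.58% and 4.73% in endothelial-like cells. The endothelial-like shares rest on 2 UMIs in Ctrl and 8 in CL. The levels themselves were higher in CL, for instance 8.31 and 25.5 CPM in hormone-responsive luminal-like cells, as was the droplet level. At 2000 UMIs per cell 2.27% of hormone-responsive luminal-like cells in Ctrl and 5.18% in CL had a Ccl5 UMI, against 70.5% and 76.7% of T-like cells. With all cells counted, basal-like cells had 48.4 and 33.9 CPM (log2 -0.51), but 1 Ctrl cell held 75.1% of their UMIs. Fibroblast-like cells had 50.7 and 449 CPM (log2 3.15), but 1 Ctrl cell held 74.2% of their UMIs and 5 CL cells 86.2%, and the ratio ran from 1.61 to 4.68 over the alternatives. In them the sum of the T markers was 32.4 CPM in Ctrl against 85.9 CPM in CL. Without cells with a T or NK marker they had 13.8 and 42.0 CPM (log2 1.61). Cluster 20 held 77 of their 97 Ccl5 UMIs in Ctrl and 493 of 727 in CL. Without cluster 20 the levels were 12.0 and 176 CPM (log2 3.87). That cluster had Cd3e, a T marker, at 20.4 CPM, and its second marker score was that of the secretory lineage (1.43, against 6.23 for fibroblasts). The part of undetected doublets with lymphocytes in these levels was not tested. Of the 4 genes with a ratio in fibroblast-like cells, Ccl5 was the 1 higher by 2-fold and 0 were lower, against 2.13% higher and 3.33% lower over all genes.

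Macrophage-like cells stood higher against the droplets in both libraries. Without cells with a T or NK marker they still had 206 CPM of Ccl5 in Ctrl and 562 CPM in CL, 84.7% and 82.4% of the droplet level, far above the share found in the epithelial classes. With all their cells the levels were 328 and 562 CPM (109 and 252 UMIs, log2 0.78, 0.45 to 1.12). Secretory-lineage cluster 6, which had 15 cells in Ctrl and 803 in CL, had 1969 CPM in Ctrl against 117 CPM in CL, and 1 Ctrl cell held 334 of the 469 UMIs. In the CL cells of cluster 6 without lymphocyte markers the level was 13.5% of the droplet level. In the 14 Ctrl cells without them it was 1715 CPM (355 UMIs), 705% of the droplet level. The cell with 334 UMIs was still among these 14, so that level rests on 1 cell.

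**Figure D5:**
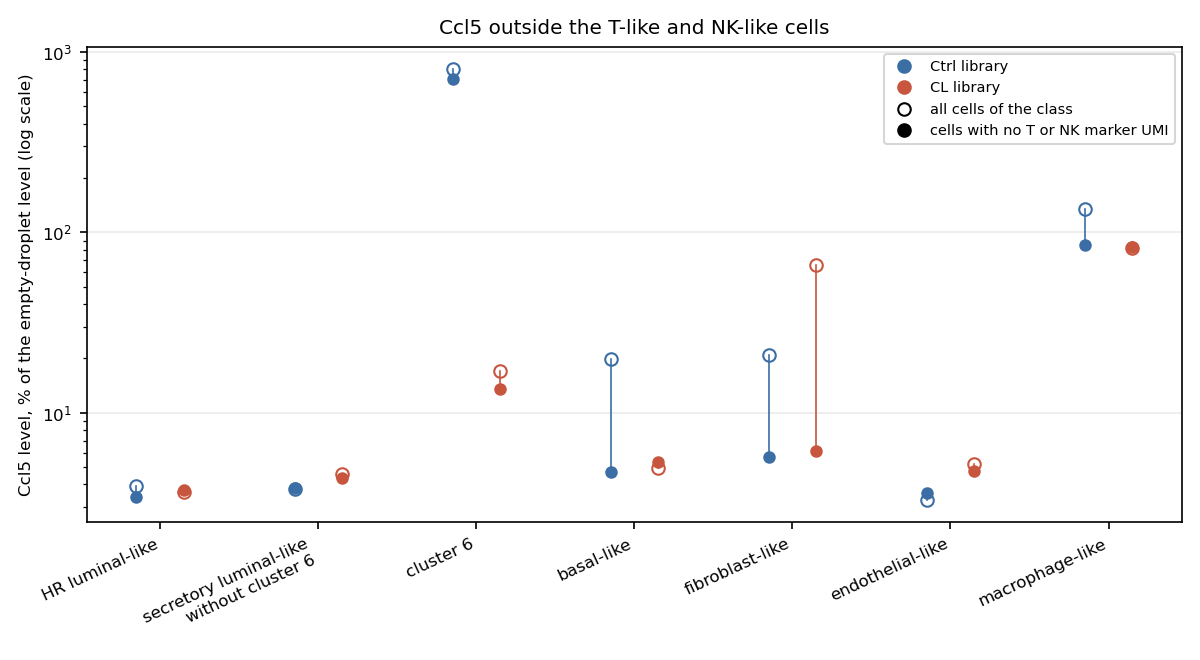
Ccl5 in the non-lymphoid classes as a percent of the level in empty droplets of the same library, on a log axis, Ctrl in blue and CL in red; open circles are all cells of a class and filled circles the cells without a UMI of a T or NK marker. The filled circles of the 2 luminal, basal-like, fibroblast-like and endothelial-like classes lie between 3.41 and 6.15% in both libraries, with cluster 6 apart. Those of endothelial-like cells rest on 2 UMIs in Ctrl and 8 in CL. Those of macrophage-like cells lie at 84.7% in Ctrl and 82.4% in CL. In the filled Ctrl circle of cluster 6, 1 cell held 334 of the 355 UMIs.

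Ccl20, which attracts Ccr6-bearing lymphocytes and dendritic cells, had 99.2% of its UMIs in luminal cells in Ctrl and 97.7% in CL. Luminal cells also held 76113017 of the 83792969 UMIs of all genes in Ctrl and 94621810 of 105501670 in CL. In Ctrl the upper limits were 2.91 CPM in fibroblast-like and 1.49 CPM in basal-like cells. With 0 UMIs they were 8.62 CPM in T-like, 12.7 in NK-like, 11.1 in macrophage-like and 14.7 in endothelial-like cells, where a level like the luminal one could go unseen. Hormone-responsive luminal-like cells had 5.24 CPM in Ctrl (213 UMIs, 4.56 to 6.0) and 1.96 CPM in CL (90 UMIs, 1.58 to 2.41), a log2 ratio of -1.42 (-1.79 to -1.06). It was seen in 43 of 2021 cells in Ctrl and 37 of 2512 in CL, and in each library 4 cells held at least 50% of the UMIs. At a common 6857 UMIs the share of cells with a UMI was 1.47% in Ctrl (0.971 to 2.13%) and 0.442% in CL (0.212 to 0.812%). The intervals overlapped at 2000 UMIs, with 0.657% (0.35 to 1.12%) and 0.364% (0.167 to 0.69%), and unthinned, with 2.13% (1.54 to 2.86%) and 1.47% (1.04 to 2.02%). In cluster 1, which both libraries filled well, the levels were 7.74 and 2.66 CPM, and in cluster 9, which had 696 cells in Ctrl and 41 in CL, 7.54 and 4.72 CPM. In cluster 10 they were 1.64 and 1.67 CPM. Secretory-lineage cells had 0.635 CPM in Ctrl against 0.792 CPM in CL (19 and 34 UMIs, log2 0.32, -0.53 to 1.21). The droplet level, 2.99 CPM in Ctrl against 1.17 CPM in CL, was lower in CL as well. Of the 6 genes with a ratio in hormone-responsive luminal-like cells, Ccl20 was the 1 lower by 2-fold and Ccl5 the 1 higher, against 2.03% and 1.23% of all genes there. Ccl5 stood at 9.55 and 24.7 CPM in these cells and went to 0 in both libraries once free RNA was taken off, while Ccl20 kept a log2 ratio of -1.43.

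Cx3cl1, the membrane-bound ligand of Cx3cr1, was spread over all epithelial classes. Secretory-lineage luminal-like cells had 87.1 CPM in Ctrl (2605 UMIs, 83.8 to 90.5) and 94.3 CPM in CL (4050 UMIs, 91.4 to 97.3), a log2 ratio of 0.11 (0.04 to 0.19), and at least 50% of the UMIs took 273 cells in Ctrl and 426 in CL. Basal-like cells had 95.7 and 84.8 CPM (358 and 248 UMIs, -0.17, -0.41 to 0.06), with intervals that overlap those of the secretory lineage in both libraries. Hormone-responsive luminal-like cells had 24.7 and 26.6 CPM (0.11, -0.01 to 0.23), below both, and 24.0 and 26.1 CPM after free RNA was taken off. Within the secretory lineage cluster 5 had 108 and 122 CPM, cluster 11 98.1 and 89.5 CPM and cluster 3 56.4 and 62.3 CPM. The span over these clusters was wider than the library difference within each of them. In cluster 6 the libraries lay further apart: the 15 Ctrl cells had 407 CPM (97 UMIs) and the 803 CL cells 109 CPM (1098 UMIs). The Ctrl secretory-lineage cell richest in Cx3cl1 held 44 UMIs of it. Its total of 23854 UMIs equalled that of the cluster 6 cell with 334 Ccl5 UMIs. If they are the same cell, much of the Ctrl level of cluster 6 comes from 1 cell. At 2000 UMIs the shares of cells with Cx3cl1 were 15.4 and 13.9% in basal-like cells and 4.9 and 5.1% in hormone-responsive luminal-like cells. Of the 6 genes with a ratio in secretory-lineage cells, Cx3cl1 was not among the 1 higher (Ccl5) or the 1 lower (Ccl7) by 2-fold, where 1.57% and 1.47% of all genes were. Ccl7 stood at 1.94 and 0.815 CPM there and went to 0 in both libraries once free RNA was taken off. Ccl5 stood at 24.8 and 51.1 CPM before and 10.6 and 17.5 CPM after, a log2 ratio of 0.72 that is under 2-fold. In Ctrl 1 cell held 45.0% of these Ccl5 UMIs. Without the richest cell of each library, and before free RNA was taken off, the levels were 13.7 and 47.2 CPM (log2 1.79). The Ctrl level and the size of the ratio thus depend on that cell.

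Endothelial-like cells had Cx3cl1 at 23.8 CPM in Ctrl against 83.4 CPM in CL (6 and 26 UMIs, log2 1.81, 0.49 to 3.38), a difference that rests on 6 Ctrl UMIs. Fibroblast-like cells had 32.9 and 38.9 CPM, and T-like, NK-like and macrophage-like cells had fewer than 10 UMIs in each library. The receptor Cx3cr1 was on the other side of the map. Its UMIs were 9 in Ctrl and 41 in CL in T-like cells (21.02 and 17.9 CPM), 10 and 8 in macrophage-like cells (30.1 and 17.8 CPM), 0 and 10 in NK-like cells, and 5 and 4 in the monocyte-like or dendritic-like cells, of which Ctrl had 3 and CL 26. At these numbers no difference in any class was detectable beyond counting error with at least 20 UMIs behind the higher level. Every T-like cell with Cx3cr1 also had Ccl5 (8 of 8 in Ctrl and 29 of 29 in CL), where 70.6% and 79.5% of all T-like cells had Ccl5. The 2 sheddases were measured in every large class. Adam10 and Adam17 together were 361 CPM in Ctrl against 306 CPM in CL in hormone-responsive luminal-like cells. They were 58.3 and 55.4 CPM in basal-like cells and 219 and 215 CPM in endothelial-like cells. In droplets without a cell Adam10 stood at 152 and 110 CPM and Adam17 at 19.7 and 21.3 CPM. The basal-like levels were thus below the droplet level of Adam10 alone.

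Receptors and decoys for chemokines were measured in the same classes. Ccr2, the receptor for Ccl2 and Ccl7, was 186 CPM in Ctrl against 137 CPM in CL in NK-like cells and 135 and 84.5 CPM in T-like cells. Ccr1, a receptor for Ccl3 and Ccl5, was 231 and 152 CPM in macrophage-like cells. Ackr1, a decoy receptor that carries chemokines across the venule wall, was 1431 and 1658 CPM in endothelial-like cells, and Ccrl2, which presents chemerin, was 234 and 230 CPM in macrophage-like and 84.2 and 52.5 CPM in fibroblast-like cells. The 14 receptors and decoys together were 706 CPM in Ctrl against 653 CPM in CL in macrophage-like cells (log2 -0.11, -0.37 to 0.14) with 7 at 0 in each library.

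Of the 15 other CC and C chemokines looked at, Ccl8, a CC ligand encoded near Ccl2 and Ccl7 and made by resident macrophages, had the pattern of Ccl7 there: 328 CPM in the Ctrl macrophage-like cells (109 UMIs) against 0 UMIs in CL, at least 49.0-fold lower, with 126 and 114 CPM in fibroblast-like cells. Ccl9 was 298 and 93.6 CPM in macrophage-like cells (log2 -1.67), and Ccl6 and Ccl12 were 96.2 and 73.6 CPM and 72.1 and 51.3 CPM. Together the 15 came to 857 CPM in Ctrl against 250 CPM in CL there (-1.78). Ccl11, the eosinophil attractant, was 821 and 710 CPM in fibroblast-like cells, and 470 CPM in Ctrl against 0 UMIs in CL in cluster 26, at least 43.5-fold lower. Xcl1, which attracts cross-presenting dendritic cells, was 2637 and 1762 CPM in NK-like cells (-0.58) and 367 and 147 CPM in T-like cells (-1.31). Ccl21a, which guides Ccr7-bearing cells into lymphatics, was 123 and 314 CPM in endothelial-like cells (31 and 98 UMIs).

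Feedback genes of NF-kappaB, the pathway through which Tnf induces Ccl2 and Ccl7, were measured beside them. The 8 genes came to 2662 CPM in Ctrl against 3204 CPM in CL in fibroblast-like cells (log2 0.27), 1629 and 1793 CPM in basal-like cells (0.14) and 3138 and 2423 CPM in macrophage-like cells (-0.37). Dissociation stress genes were 11809 and 9424 CPM in fibroblast-like cells (-0.33) and 12518 and 13752 CPM in basal-like cells (0.14). The part of either list in the Ccl2 levels was not tested.

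Over 52 units, each a cluster in 1 library with at least 20 cells, the genes whose log2 levels ran most like those of Ccl2 were Ccl7 (Pearson r = 0.96), the secreted ribonuclease Rnase4 (0.94) and the collagen-binding serpin Serpinf1 (0.92). For Ccl7 they were Ccl2, Serpinf1 (0.91) and Ccl8 (0.90), and for Ccl3 they were Ccl4 (0.87), the receptor Slamf7 (0.87) and the leukocyte signalling protein Plek (0.84). Ccl4 ran with Gnptab (0.92) and Vav1 (0.91), and Ccl5 with the lymphocyte genes Ptpn22 (0.96), Nkg7 (0.95) and Sh2d2a (0.95). For Ccl20 the likeness was lower, 0.79 for Shpk, 0.78 for Olfm4 and 0.75 for the oestrogen-regulated gene Greb1. Cx3cl1 ran with Lpgat1, Nectin1, a junction protein, and S100a16 (0.92, 0.91 and 0.91), and Cx3cr1 with Slamf7, Cd48 and Ccl9 (0.75, 0.75 and 0.74). These values describe clusters that share 2 libraries and differ in depth.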

How the data were processed

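Mammary gland cells of 1 Ctrl and 1 CL library were analysed. The deposited matrices hold raw counts of UMIs per gene and barcode, which the authors made with Cell Ranger 2.1.1 on mm10 per the labels' processing notes, while the header of the matrix names version 4. Each matrix has 6794880 barcodes, most of them empty, and no deposited cell types, and the deposited barcode lists (7217 in Ctrl and 10555 in CL) do not index its columns. So the 7217 and 10555 barcodes with most UMIs were taken, those with at least 500 genes and at most 15% mitochondrial UMIs kept, and 450 (7.15%) and 976 (10.5%) doublets removed with Scrublet in scanpy 1.11.5, leaving 5847 and 8359 cells. The barcode lists shared 18 barcodes. Total UMIs were 118743318 and 155765480.

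Cells were normalized, reduced to 30 components of 2000 variable genes without the chemokine and receptor lists, and clustered with Leiden at resolution 1. Clusters were named from marker lists (at least 3 markers). Counts were summed by class and library and given as CPM with exact Poisson 95% intervals, shares with Clopper-Pearson intervals and ratios with exact conditional binomial intervals. With 1 library per group no test was run. Ratios were given from 20 UMIs in the library with the higher level, and a 0 was read as a floor of 3 UMIs. Free RNA was measured in droplets of 100 to 300 UMIs. Alternatives were filters, doublet settings, Leiden resolutions of 0.5 and 2, naming each cell alone, scaling (edgeR 4.0.16 TMM), mean of cells and free RNA subtraction, and 4 chosen after seeing the data. The count steps were tested on simulated data.

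All 8 genes are described. A gene of the pathway lists was named where it reached 50 CPM and 20 UMIs in a class of a library, and for each gene the 3 genes with the highest Pearson correlation of log2(CPM + 10) were named, among genes with at least 100 UMIs. A receptor gene and 1 coding stretch that these rules select are not reported here. The genes and lists were chosen with earlier results of these data known. Positions and sequences are from GENCODE M21 on GRCm38.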

Additional observations from a re-analysis of the deposited data

Results flagged for a closer look

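For 4 genes the log2 ratio of CL over Ctrl pointed in opposite directions in a pair of cell types, each beyond its counting interval. These differences between cell types were not tested, since each group has 1 library. Ccl2 was higher in CL in basal-like cells (0.54) and lower in macrophage-like cells (-6.01). Ccl3 was higher in neutrophil-like cells (1.05, from 2 Ctrl cells, and between -0.55 and -0.47 under 5 alternatives) and lower in macrophage-like cells (-2.32). Ccl4 was higher in unnamed luminal cells (3.02), where 1 CL cell held 80.4% of the UMIs and the ratio was 0.24 (-1.56 to 2.09) without cells with a T or NK marker UMI, and lower in macrophage-like cells (-2.10). Ccl5 was higher in unnamed luminal cells (3.24), where 1 CL cell held 40.5% and 5 cells 77.5% of the UMIs and the ratio was 1.44 without cells with a T or NK marker UMI. It was lower in basal-like cells (-0.51), where 1 Ctrl cell held 75.1% of the UMIs. That direction turned under 3 alternatives, to 1.45 without the richest cell, 0.32 as a mean over cells and 1.67 without cells with a T or NK marker UMI.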

How the results depend on the processing

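No paired analysis was possible because each group has 1 library. A set of ratios was chosen: Ccl2 and Ccl7 in fibroblast-like, Ccl3 and Ccl4 in macrophage-like, and Ccl4 and Ccl5 in NK-like cells. With them were Ccl5 in T-like cells, Ccl20 in hormone-responsive luminal-like cells and Cx3cl1 in both named luminal classes. Cx3cr1, Ccl3 in neutrophil-like cells, Cx3cl1 in basal-like cells and Ccl2 in macrophage-like cells were not in this set. Of its 157 alternative values, 110 stayed within the counting interval in the same direction and 46 moved beyond it. A direction that lay beyond counting error reversed in 1. Of those 46, 2 turned the sign of Ccl7 in fibroblast-like cells, whose interval includes 0. Of the other ratios 707 stayed within the interval, 134 moved beyond it and 19 reversed a direction beyond counting error, and 17 of those that stayed or moved turned sign where the interval includes 0. The 4 alternatives chosen after seeing the data left out the richest cell of each library, the cells with a UMI of a T or NK marker, the barcodes retained in both libraries, or used the Ctrl doublet threshold in both. Where a direction reversed the cause was not tested. All values that follow are log2 ratios of CL over Ctrl.

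With at least 1000 genes per cell, Ccl2 in fibroblast-like cells was 0.12, Ccl3 and Ccl4 in macrophage-like cells -1.68 and -1.21, Ccl4 in NK-like cells -0.90, Ccl5 in NK-like and T-like cells 0.22 and 0.011, and Ccl4 reversed in unnamed lymphoid cells (0.32) and over all cells (0.18). With at least 200 genes, Ccl3 and Ccl4 in macrophage-like cells were -1.86 and -1.22, Ccl4 and Ccl5 in NK-like cells -0.96 and 0.25, and Ccl3 in neutrophil-like cells -0.55. With at most 5% mitochondrial UMIs, Ccl2 and Ccl7 in fibroblast-like cells were 0.072 and -0.16, Ccl2 in cluster 26 was 0.051, Ccl4 in NK-like and macrophage-like cells -0.93 and -2.29, Ccl5 in NK-like cells 0.23 and Ccl20 in hormone-responsive luminal-like cells -1.03. With no mitochondrial limit, Ccl3 and Ccl4 in macrophage-like cells were -1.71 and -1.25, Ccl3 in neutrophil-like cells -0.55, Ccl3 and Ccl4 over all cells both 0.30, and Ccl5 over all myeloid cells but the neutrophil-like 0.069.

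With doublets kept, Ccl2 in fibroblast-like cells was 0.25, Ccl3 and Ccl4 in macrophage-like cells -1.96 and -1.27, Ccl3 in neutrophil-like cells -0.47 and Ccl5 in T-like cells 0.045. With the Ctrl doublet threshold in both libraries, Ccl2 in fibroblast-like cells was 0.30 and Ccl3 in neutrophil-like cells -0.55. At Leiden resolution 0.5, Ccl2 in fibroblast-like cells was 0.23, Ccl3 in neutrophil-like cells -0.55, and Ccl5 in NK-like and T-like cells 0.25 and 0.19. At resolution 2, Ccl2 in fibroblast-like cells was 0.23, Ccl3 and Ccl4 in macrophage-like cells -2.75 and -2.67, Ccl5 in NK-like and T-like cells 0.20 and 0.018, and Ccl4 in unnamed lymphoid cells 0.16. With each cell named alone, Ccl4 in macrophage-like and NK-like cells was -2.84 and -0.13, and Ccl5 in NK-like and T-like cells 0.51 and 0.20.

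With TMM scaling, Ccl5 in NK-like and T-like cells was 0.49 and 0.14. As a mean of each cell's CPM, Ccl2 and Ccl7 in fibroblast-like cells were -0.19 and -0.30, Ccl7 in endothelial-like cells 0.051, Ccl3 over all cells 0.16, and Ccl5 in NK-like, T-like and basal-like cells 0.33, 0.17 and 0.32. Without the richest cell, Ccl3 and Ccl4 in macrophage-like cells were -2.85 and -2.60, Ccl3 and Ccl4 over all cells 0.089 and 0.12, and Ccl5 in T-like and basal-like cells 0.16 and 1.45. Without cells with a T or NK marker UMI, Ccl2 in fibroblast-like cells was 0.094, Ccl3 and Ccl4 in macrophage-like cells -1.66 and -0.77, and Ccl5 in basal-like cells 1.67. Depth limits Cx3cr1, Ccl20 and every gene in classes of few cells, where 20 UMIs or fewer stand behind a level.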
